A study of Mus musculus with 20 samples.

Results

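Genes that mark newly formed and still-growing neurons were followed across the injured and uninjured hemispheres of mouse brains: Dcx, Sox11, Sox4, Tubb2b, Stmn1, Nrep, Igfbpl1, Dpysl3, Crmp1 and Neurod1. They are 10 of the 19937 genes that had a probe set annotated to their symbol alone, and each was read from the 1 such probe set on the array. The genes were listed by name with earlier results of these data known, and no threshold on their measured values was used. Signals of each of the 10 exceeded the array's median control signal in 20 of 20 arrays. This bar is low, since 20805 of the 28187 tested probe sets passed it in at least 5 arrays.

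The arrays measured total RNA from the left and right hemispheres of 10 C57/Bl6 mice, with 4 groups of 5 arrays. Every mouse, with or without peptide, had received lipopolysaccharide (LPS) followed by hypoxia-ischemia (HI), which injures the left hemisphere and leaves the right one as the uninjured side of the same brain. 5 animals had received no peptide and 5 had received IDR1018, a synthetic innate defence regulator peptide. The groups were therefore injured left without peptide, uninjured right without peptide, injured left with IDR1018 and uninjured right with IDR1018. No group without LPS and HI was analysed here, so the right hemisphere is a reference that had been exposed to LPS and to systemic hypoxia. The labels call the mice adult and give no age, dose or time after injury, although as background this form of injury is commonly produced in newborn rodents.

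Neurons pass through an immature stage after their last division, during which they migrate, extend processes and switch on neuronal genes before synapses form. Transcription factors such as Sox4, Sox11 and Neurod1 help to start the neuronal programme, while Dcx, Stmn1, Tubb2b and the collapsin response mediator family act on the cytoskeleton of the moving cell and its growth cone. In the adult brain such cells are found mainly in the dentate gyrus and along the path from the subventricular zone to the olfactory bulb, and several of the genes also return in mature neurons that regrow an axon.

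The values are log2 RMA signals, so a difference of 1 is a doubling, and signals of different genes are not compared because each probe set has its own efficiency. Array medians ran from 8.20 to 8.23, and correlations between arrays from 0.994 to 0.998. The number of arrays limits the precision. Markers of mature neurons had a mean level of 12.24 to 12.30 in the left and 12.29 to 12.38 in the right hemispheres without peptide, and 1 of the 10 was lower in the left. Of 10 markers of oligodendrocyte precursors, 3 were lower in the left without peptide (mean level 10.14 to 10.35 against 10.32 to 10.45) and 4 with IDR1018 (10.24 to 10.34 against 10.33 to 10.43). Of 8 markers of pericytes and meninges, 2 were lower in each comparison (9.15 to 9.58 against 9.58 to 9.74, and 9.24 to 9.58 against 9.48 to 9.77). Microglial markers went both ways, with 2 of 8 higher and 3 lower without peptide and 1 higher and 2 lower with IDR1018. Their part in the member results was not tested. These are whole hemispheres, in which fewer cells of a type and less RNA per cell cannot be told apart. All left arrays have lower numbers in the file descriptions than all right ones, so any effect of array order and the effect of hemisphere cannot be told apart either.

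Some arrays stood high or low for most members. The injured left IDR1018 array of replicate 3 had the lowest value of its group for 9 of the 10 genes, by a median of -0.14 against the mean of the other 4. Its mature neuron markers averaged 12.28, inside the range of its group, 12.22 to 12.34. In the left group without peptide, replicate 3 was the highest for 8 of 10 genes, and in the right IDR1018 group replicate 5 was the highest for 7 of 10. Some results of Sox11, Dcx, Nrep, Tubb2b and Igfbpl1 are also given without the injured left IDR1018 array of replicate 3. The left minus right difference of Neurod1 with IDR1018 ranged from -0.49 to -0.33 over 13 alternatives. They include leaving out that array, and Neurod1 passed the test in each.

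Among the transcription factors, Neurod1, a basic helix-loop-helix factor of granule neurons in the dentate gyrus and cerebellum, was lower in the injured hemisphere in both sets of animals. Sox11, a SoxC factor that activates neuronal genes, was higher in the injured hemisphere of animals without peptide. Sox4, its close relative, had groups that did not overlap in those animals but missed the threshold. The 250 bases upstream of the annotated start of these 3 genes are shown because these are the transcription factors among the members. They are from RefSeq, build GRCm38.p6, all on the minus strand and written 5′ to 3′, and capitals mark each CANNTG, the E-box to which basic helix-loop-helix factors such as Neurod1 bind.
Neurod1, chr2:79456637-79456886: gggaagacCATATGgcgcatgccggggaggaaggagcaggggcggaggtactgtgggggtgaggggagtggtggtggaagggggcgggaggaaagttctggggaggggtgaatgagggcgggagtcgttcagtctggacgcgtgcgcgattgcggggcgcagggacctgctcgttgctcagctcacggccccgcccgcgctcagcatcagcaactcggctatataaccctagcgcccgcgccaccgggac
Sox11, chr12:27342719-27342968: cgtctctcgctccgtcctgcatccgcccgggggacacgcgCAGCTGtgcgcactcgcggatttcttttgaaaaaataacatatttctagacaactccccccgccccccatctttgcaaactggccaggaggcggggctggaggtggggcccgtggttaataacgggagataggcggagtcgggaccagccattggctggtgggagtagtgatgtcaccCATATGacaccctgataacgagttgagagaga
Sox4, chr13:28953700-28953949: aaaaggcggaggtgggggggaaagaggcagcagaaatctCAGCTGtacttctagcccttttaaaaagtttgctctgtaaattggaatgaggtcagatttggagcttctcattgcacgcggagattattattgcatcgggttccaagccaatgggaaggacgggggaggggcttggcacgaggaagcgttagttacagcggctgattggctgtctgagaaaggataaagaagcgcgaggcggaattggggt
CANNTG reads the same on both strands. It occurred 1 time upstream of Neurod1, 2 times upstream of Sox11 and 1 time upstream of Sox4. Windows of the same length upstream of other genes held it in 66.2% of 32851 cases, so its presence does not set these genes apart. CAGATG, an E-box form that overlaps CANNTG and was searched on both strands, was in 0 of the 3 windows and in 14.4% of all windows. The Sox-type motifs ACAATG and ACAAAG, also searched on both strands, were in 0 of the 3 windows, against 10.7% and 16.5% of all windows. A match is a string of letters and no evidence of binding.

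In animals without peptide, Neurod1 read 8.85, 9.11, 8.74, 8.81 and 8.98 in the injured left hemispheres of replicates 1 to 5. The uninjured right hemispheres of the same animals read 9.31, 9.44, 9.28, 9.30 and 9.36. Every left value lay below every right value, and the left values were the more spread. The left minus right difference was -0.44 ± 0.06 (SE) on the log2 scale, with a 95% interval of -0.58 to -0.30 and an adjusted p of 0.00107 by limma, so Neurod1 signal fell by 26.2%. It was lower on the left in 5 of 5 animals.

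With IDR1018 the injured left hemispheres read 8.91, 8.96, 8.74, 8.86 and 9.21 for Neurod1. The uninjured right hemispheres read 9.24, 9.43, 9.49, 9.27 and 9.34. The groups again did not overlap, although left replicate 5 came close to the lowest right value. The difference was -0.42 ± 0.08 (SE), with an interval of -0.59 to -0.24 and an adjusted p of 0.0049, and the signal fell by 25.1%, again in 5 of 5 animals. Per animal the gap ranged from -0.76 in replicate 3 to -0.12 in replicate 5 with IDR1018, and from -0.53 to -0.34 without it. In order of level, the 2 left groups came first at 8.90 ± 0.14 (SD, n = 5) without and 8.94 ± 0.18 (SD, n = 5) with peptide, followed by the right groups at 9.34 ± 0.07 and 9.35 ± 0.11. Neighbours from the same hemisphere differed by less than their spread.

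Neurod1 is also a marker of cerebellar granule neurons, so the other 7 markers of those cells were read beside it. 0 of the 7 passed the test in either comparison. Their median left minus right difference was -0.03 without peptide and -0.09 with IDR1018, against -0.01 over all probe sets in each. The mean level of the 7 markers was 8.55 to 8.75 in the left and 8.64 to 8.79 in the right hemispheres without peptide. With IDR1018 it was 8.48 to 8.74 in the left and 8.67 to 8.81 in the right. Gabra6, the defining receptor subunit of mature cerebellar granule neurons, lay below the control median in 20 of 20 arrays. Among 8 markers of the dentate gyrus and olfactory bulb, 1 was called lower on the left in each comparison. Their median difference was -0.12 without peptide and -0.14 with IDR1018, against -0.01 over all probe sets in each. The mean level of the 8 markers was 8.28 to 8.51 in the left and 8.43 to 8.59 in the right without peptide. With IDR1018 it was 8.23 to 8.54 in the left and 8.41 to 8.56 in the right. Whether the share of these regions in each dissected hemisphere moved with Neurod1 was not tested.

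Sox11 moved the other way. Without peptide it read 10.67, 10.70, 10.72, 10.72 and 10.62 in the injured left hemispheres and 10.47, 10.53, 10.54, 10.52 and 10.43 in the uninjured right ones. The groups did not overlap, and within each animal the left side was higher by a narrow range of 0.17 to 0.21. The difference was 0.19 ± 0.04 (SE), with an interval of 0.11 to 0.27 and an adjusted p of 0.0043 by limma, a 14.0% higher signal.

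With IDR1018, Sox11 read 10.61, 10.64, 10.42, 10.55 and 10.59 on the left and 10.52, 10.40, 10.47, 10.46 and 10.62 on the right. Here the groups overlapped: replicate 3 had the lowest left value, replicate 5 the highest right value, and 3 of 5 animals were higher on the left. The difference was 0.07 ± 0.05 (SE), with an interval of -0.05 to 0.18 and an adjusted p of 0.440. Without the left array of replicate 3 it was 0.10, with an adjusted p of 0.188. The test of whether the hemisphere difference itself changed with the peptide gave -0.12 ± 0.06 (SE), with an interval of -0.25 to 0.01 and an adjusted p of 1.00, so Sox11 was not shown to respond differently in the 2 sets of animals.

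Sox4 read 9.76, 9.74, 9.89, 9.72 and 9.71 in injured left hemispheres without peptide, and 9.71, 9.64, 9.65, 9.59 and 9.52 in the right ones. The lowest left value was just above the highest right value, and the left side was higher in 5 of 5 animals. The difference of 0.14 ± 0.05 (SE), with an interval of 0.04 to 0.24, had an adjusted p of 0.0532, just outside the threshold of 0.05. With the replicate block, which compares the 2 sides of each animal, the adjusted p was 0.0489. With IDR1018 the left values were 9.83, 9.64, 9.59, 9.81 and 9.66 and the right values 9.61, 9.47, 9.56, 9.54 and 9.69. These overlapped, and the difference of 0.13 ± 0.06 (SE), with an interval of 0.00 to 0.25, had an adjusted p of 0.160 and was positive in 4 of 5 animals.

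**Figure D1:**
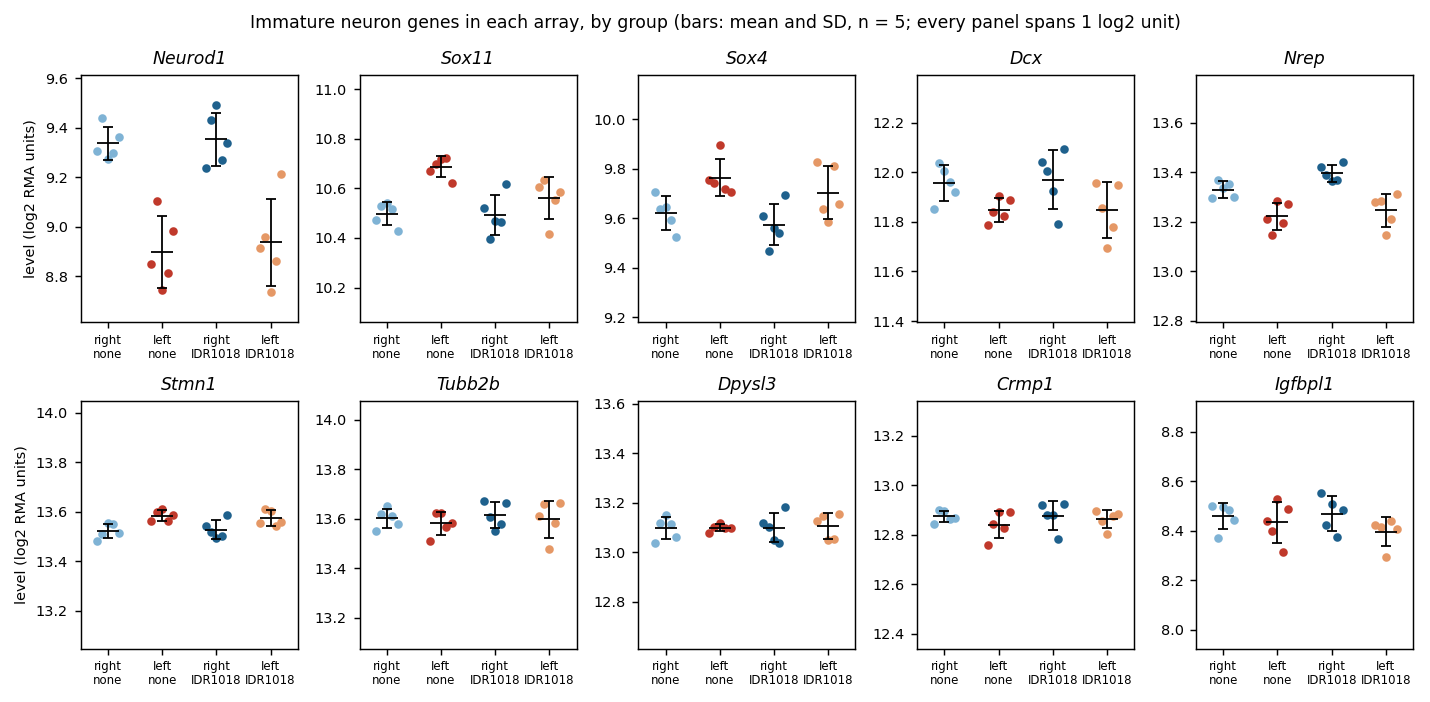
Log2 RMA signal of each of the 10 genes in each of the 20 arrays, with 1 panel per gene, the 4 groups along the horizontal axis and bars at the group mean and SD (n = 5). Neurod1 lies lower in both left groups than in both right groups, and Sox11 is highest in the left group without peptide at a mean of 10.69.

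Across all 10 genes, 1 was called higher on the injured side (Sox11) and 1 lower (Neurod1) without peptide, 2 of 10 in all. Over the 28187 probe sets tested, 18.1% were called in that comparison, 9.21% higher and 8.84% lower, so the members' share is near the background. The left and right arrays did not overlap for 5 of the 10 (Sox11, Sox4, Stmn1, Nrep and Neurod1), against 15.2% of all probe sets. With IDR1018, 0 of 10 were called higher and 2 lower (Neurod1 and Nrep), against 14.8% of all probe sets called in either direction, 7.77% higher and 7.07% lower. There the arrays did not overlap for 2 of 10, against 13.6% of all probe sets. The median difference of the members was -0.02 in each comparison, and that of all probe sets was -0.01. The called members were single genes that went in opposite directions without peptide.

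Dcx encodes doublecortin, the microtubule-associated protein that is the most used marker of migrating neuroblasts. It read 11.79, 11.84, 11.91, 11.82 and 11.89 on the left without peptide, and 11.85, 12.04, 12.01, 11.96 and 11.92 on the right. The left side was lower in 5 of 5 animals, but the groups overlapped, and the difference of -0.11 ± 0.04 (SE), with an interval of -0.20 to -0.01, had an adjusted p of 0.106. With IDR1018 the left values were 11.96, 11.86, 11.70, 11.78 and 11.95 and the right values 12.04, 12.00, 11.92, 11.79 and 12.10. The left side was again lower in 5 of 5 animals, by -0.01 in replicate 4 and by -0.23 in replicate 3, while the groups overlapped widely. The difference of -0.12 ± 0.07 (SE) had an interval of -0.27 to 0.02 and an adjusted p of 0.246. Without the left array of replicate 3 it was -0.08.

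Nrep, a small neuronal protein named for its link to nerve regeneration, was the other member called lower on the injured side beside Neurod1. In the main fits this held only with IDR1018. Without peptide it read 13.21, 13.15, 13.28, 13.20 and 13.27 on the left and 13.29, 13.37, 13.34, 13.35 and 13.30 on the right. The groups did not overlap and the left side was lower in 5 of 5 animals, yet the difference of -0.11 ± 0.04 (SE), with an interval of -0.19 to -0.03, had an adjusted p of 0.0613. It passed the threshold in 4 of 12 alternatives, with all 4 groups in 1 fit (adjusted p 0.0346), median centring (0.0398), dim probe sets left out (0.0386) and a trended and robust variance (0.0111). With IDR1018 the left values were 13.28, 13.28, 13.15, 13.21 and 13.31 and the right values 13.42, 13.39, 13.36, 13.37 and 13.44. All left values lay below all right values, and the difference of -0.15 ± 0.04 (SE), with an interval of -0.24 to -0.07, had an adjusted p of 0.0235. The signal fell by 9.92%. That call was lost without animal replicate 1, 2, 3 or 4, with adjusted p of 0.0699, 0.0656, 0.0631 and 0.0774, and was kept without replicate 5. Leaving out only the left array of replicate 3 gave -0.13 with an adjusted p of 0.0493. The difference between the results with and without the peptide, -0.04 ± 0.05 (SE) with an interval of -0.15 to 0.06, did not pass the test.

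**Figure D2:**
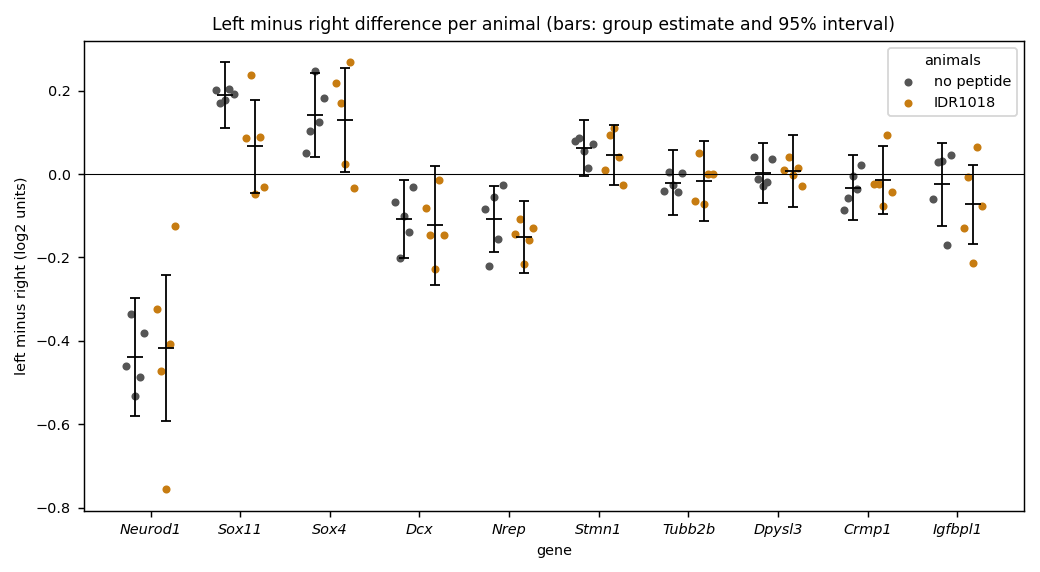
Left minus right log2 difference of each of the 10 genes in each animal, 5 without peptide and 5 with IDR1018, with bars at the fitted difference and its 95% interval and a line at 0. The intervals come from the main fits, which do not pair the sides of an animal, whereas the points do. Neurod1 is below 0 in all 10 animals, Nrep and Dcx are also below 0 in all 10, and Sox11 is above 0 in 5 of 5 animals without peptide and in 3 of 5 with IDR1018.

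Stmn1 encodes stathmin, which destabilises microtubules. Without peptide it read 13.56, 13.60, 13.61, 13.56 and 13.59 on the left and 13.48, 13.51, 13.56, 13.55 and 13.51 on the right. The groups did not overlap, but the difference was small at 0.06 ± 0.03 (SE), with an interval of -0.01 to 0.13 and an adjusted p of 0.197. With IDR1018 it was 0.05 ± 0.03 (SE), with an adjusted p of 0.411, and the groups overlapped. The name of this probe set carries a doubt: in identifier order it lies between those of Brinp1 and Cdk5rap2, whereas in RefSeq Stmn1 lies between Pafah2 and Paqr7. RefSeq also lists Stmn1 pseudogenes, so the signal of Stmn1 and of a near copy cannot be told apart here.

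The remaining cytoskeletal members stayed close to 0. Tubb2b, a beta-tubulin needed for neuronal migration, ranged from 13.51 to 13.62 on the left and 13.55 to 13.65 on the right without peptide. Its difference was -0.02 ± 0.04 (SE), with an interval of -0.10 to 0.06 and an adjusted p of 0.754, and with IDR1018 it was -0.02 ± 0.04 (SE) with an adjusted p of 0.842, or 0.01 without the left array of replicate 3. A further probe set shared by Tubb2b and its near-identical relatives gave -0.05 ± 0.04 (SE) in each comparison, with adjusted p of 0.370 and 0.452.

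Dpysl3 and Crmp1 belong to the collapsin response mediator proteins, which pass semaphorin signals to the growth cone. Dpysl3 ranged from 13.08 to 13.12 on the left and 13.04 to 13.15 on the right without peptide. Its difference was 0.00 ± 0.03 (SE), with an interval of -0.07 to 0.07 and an adjusted p of 0.964, and with IDR1018 it was 0.01 ± 0.04 (SE) with an adjusted p of 0.930. Crmp1 ranged from 12.76 to 12.89 on the left and 12.84 to 12.90 on the right, with a difference of -0.03 ± 0.04 (SE), an interval of -0.11 to 0.05 and an adjusted p of 0.588. With IDR1018 it was -0.01 ± 0.04 (SE) with an adjusted p of 0.844. For both genes the left and right ranges overlapped widely.

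Igfbpl1, a secreted protein related to insulin-like growth factor binding proteins and made by young neurons, lay 1.43 to 1.76 above the control median. It ranged from 8.31 to 8.53 on the left and 8.37 to 8.50 on the right without peptide, and the difference was -0.02 ± 0.05 (SE) with an adjusted p of 0.763. With IDR1018 the difference was -0.07 ± 0.04 (SE), with an interval of -0.17 to 0.02 and an adjusted p of 0.309. Without the left array of replicate 3 it was -0.05, with an adjusted p of 0.530. The groups overlapped in both comparisons.

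IDR1018 itself was then compared with no peptide within each hemisphere. These comparisons use the same arrays as those above, so they are other views of the same values. In the injured left hemisphere 0 of 10 members passed the limma test, as did 0% of all probe sets. At an unadjusted p below 0.05, 1 of the 10 and 4.35% of all probe sets passed. That member was Sox11, which read 10.56 ± 0.08 (SD, n = 5) with and 10.69 ± 0.04 (SD, n = 5) without the peptide, a difference of -0.13 ± 0.05 (SE) with an interval of -0.23 to -0.03 and an adjusted p of 0.999. Without the left IDR1018 array of replicate 3 it was -0.09. The other 9 members differed by -0.06 (Sox4) to 0.04 (Neurod1).

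In the uninjured right hemisphere 0 of 10 members passed, against 0.00355% of all probe sets, which is 1 probe set. At an unadjusted p below 0.05, 0 of the 10 and 4.32% of all probe sets passed. Nrep had the largest difference of the members, 0.07 ± 0.03 (SE), with an interval of -0.00 to 0.14. For the difference of the hemisphere differences, 0 of 10 members and 0% of all probe sets passed, and at an unadjusted p below 0.05 the counts were 0 of 10 and 2.77%. For Neurod1 that difference was 0.02 ± 0.11 (SE), with an unadjusted interval of -0.20 to 0.25. With 5 animals per set, the interval spans changes of its hemisphere gap in either direction, and it is not a limit of detection.

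**Figure D3:**
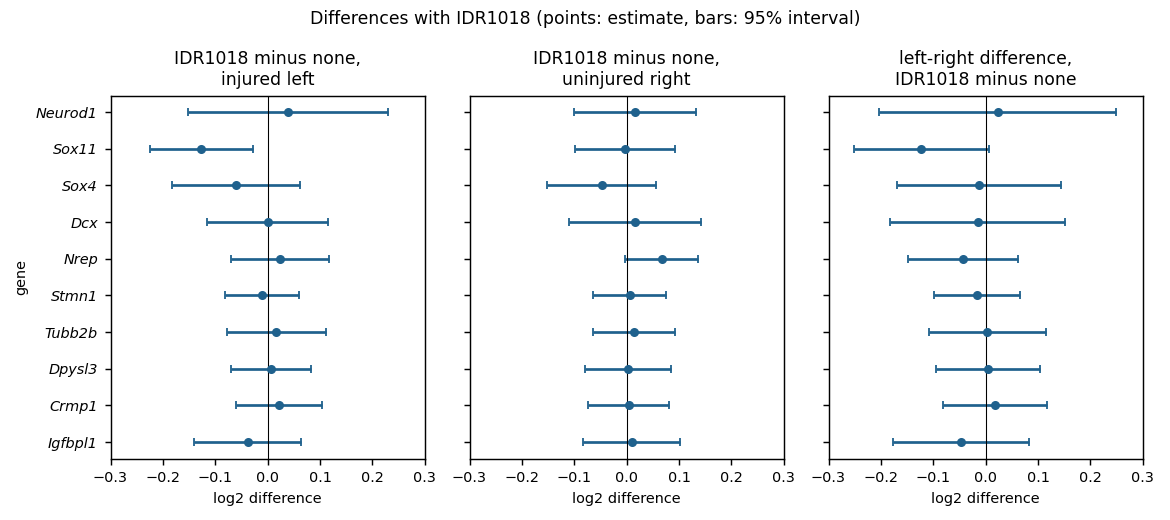
Log2 difference of IDR1018 minus no peptide for each of the 10 genes in the injured left and the uninjured right hemisphere, and the difference of the hemisphere differences, with 95% intervals. In the left hemisphere Sox11 is the only member whose interval lies wholly below 0, at -0.13, and no member passes the adjusted test.

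In the counts of the gene lists, higher and lower mean past the adjusted test. The share of all probe sets called was 9.21% higher and 8.84% lower without peptide, and 7.77% higher and 7.07% lower with IDR1018. Of 16 genes of the SoxC, doublecortin, stathmin, tubulin, collapsin response mediator and Neurod families, 2 were higher and 5 lower on the left without peptide, with a median of -0.06. With IDR1018, 1 was higher and 4 were lower, with a median of -0.07. Tubb3, the neuron-specific beta-tubulin, was lower by -0.39 ± 0.05 (SE) without peptide and by -0.30 ± 0.05 (SE) with IDR1018. Neurod6, a factor of cortical and hippocampal excitatory neurons, was lower by -0.38 ± 0.09 (SE) and -0.66 ± 0.07 (SE). Stmn4 was higher by 0.15 ± 0.05 (SE) and 0.12 ± 0.04 (SE), and Tubb2a was lower by -0.14 ± 0.04 (SE) in each comparison.

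Genes of the steps before the immature stage are the neural progenitor and neurogenic factors, of which 16 of 18 listed were measured. 1 was higher and 2 were lower on the left without peptide, and 1 was higher and 1 lower with IDR1018, with medians of -0.01 and -0.07. Nes, the intermediate filament nestin of progenitors and reactive astrocytes, was higher by 0.57 ± 0.08 (SE) without and 0.41 ± 0.06 (SE) with peptide. Hes5, a target of Notch signalling, was lower by -0.40 ± 0.06 (SE) and -0.46 ± 0.05 (SE), and Meis2 was lower by -0.20 ± 0.05 (SE) without peptide and had a difference of -0.14 ± 0.05 (SE) with IDR1018 (adjusted p 0.119). Beside Nes, 2 of 10 astrocyte markers were higher and 1 lower without peptide, and 3 higher and 1 lower with IDR1018, and their part in its rise was not tested. Among 11 proliferation genes, 1 was higher (Mcm2, 0.17 ± 0.05 SE) and 1 lower (Aurkb, -0.23 ± 0.05 SE) without peptide. With IDR1018 0 passed, and the differences of these genes were 0.13 ± 0.06 (SE) for Mcm2 and -0.15 ± 0.06 (SE) for Aurkb, with adjusted p of 0.193 and 0.107 by limma.

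Of 16 genes of neuroblast migration, 7 were lower and 0 higher on the left without peptide, against 8.84% and 9.21% of all probe sets, with a median of -0.08. With IDR1018, 5 were lower and 0 higher, against 7.07% and 7.77%, with a median of -0.06. St8sia4, which builds the polysialic acid on neural cell adhesion molecule, was lower by -0.36 ± 0.08 (SE) and -0.39 ± 0.07 (SE). Nrp1, a semaphorin and growth factor receptor, was lower by -0.35 ± 0.04 (SE) and -0.37 ± 0.06 (SE). Robo2, a receptor for Slit guidance proteins, was lower by -0.30 ± 0.04 (SE) and -0.22 ± 0.04 (SE).

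Of 15 growth cone and axon regeneration genes, 4 were higher and 0 lower in each comparison and 11 did not pass, with medians of 0.01 and 0.00. Atf3, an injury-induced transcription factor, was higher by 2.61 ± 0.25 (SE) without and 2.18 ± 0.12 (SE) with peptide. Jun was higher by 0.74 ± 0.16 (SE) and 0.59 ± 0.09 (SE), and Stat3 by 0.52 ± 0.05 (SE) and 0.42 ± 0.04 (SE). As background, all 3 are injury response factors that glia and other cells use as well as neurons.

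Of 9 measured genes of dentate granule cells, 1 was called lower without peptide (Calb1, -0.16 ± 0.04 SE) and 2 were called lower with IDR1018. In each comparison 0 were called higher, and the medians of the list were -0.10 and -0.16. The 2 called with IDR1018 were Lct at -0.18 ± 0.04 (SE) and Tdo2 at -0.24 ± 0.07 (SE), and Tdo2 lay below the control median in 20 of 20 arrays. In the other comparison Calb1 had a difference of -0.16 ± 0.07 (SE, adjusted p 0.124), Lct of -0.13 ± 0.05 (SE, 0.0928) and Tdo2 of -0.09 ± 0.07 (SE, 0.440). Of 11 measured genes listed as high in the developing brain, 1 was lower without peptide and 2 with IDR1018, with 0 higher. 1 of the 11, Nckap1, was read through a synonym in place of the listed H19, which was not measured. Nckap1 was not called, and it is counted in the 11 and in the 94 below. Bcl11b, a factor of deep-layer cortical and striatal neurons, was lower by -0.32 ± 0.04 (SE) and -0.30 ± 0.04 (SE), and Igf2 was lower by -0.22 ± 0.07 (SE) with IDR1018, with a difference of -0.17 ± 0.09 (SE, adjusted p 0.195) without it. Over the 94 genes of all 7 lists, 8 were higher and 17 lower without peptide, against 9.21% and 8.84% of all probe sets, and 6 were higher and 14 lower with IDR1018, against 7.77% and 7.07%. 0 of the 94 passed in the peptide comparisons or in the difference of the differences.

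**Figure D4:**
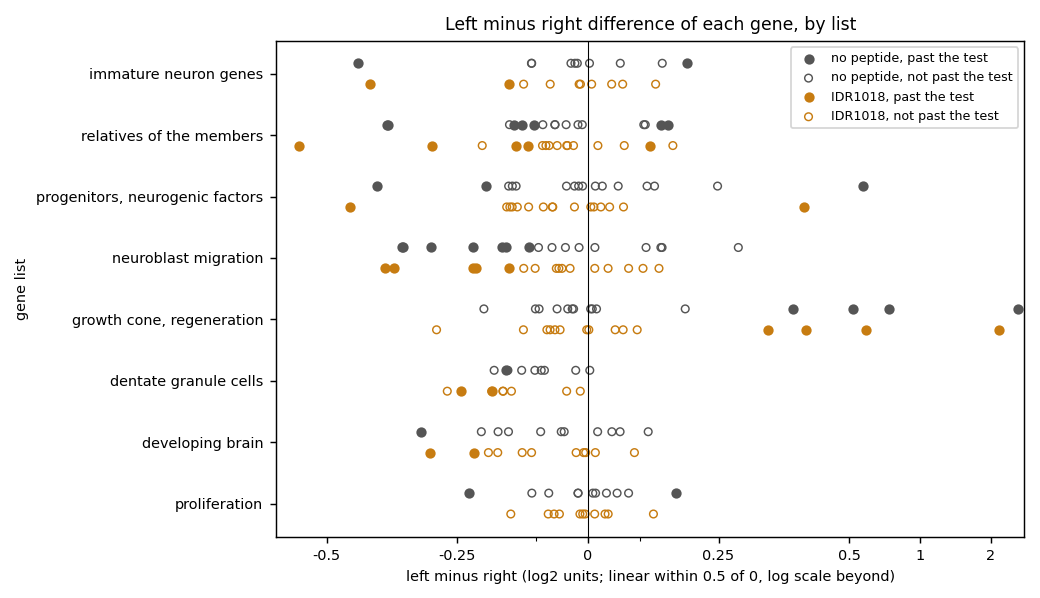
Left minus right log2 difference of each measured gene of the 7 lists and of the 10 members, without peptide and with IDR1018, with 1 row per list, filled points past the test, and an axis that is linear within 0.5 of 0 and logarithmic beyond. The migration list has 7 called genes without peptide and 5 with IDR1018, all below 0, and the regeneration list has 4 called genes in each, all above 0.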

How the data were processed

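Total RNA from 20 hemispheres was labelled with biotin and hybridised to Affymetrix arrays. The authors used RMA from affy 1.38.1, per the submitters' processing notes. The table they deposited therefore holds log2 signals after background correction, quantile normalisation and summarisation. The genome build was not given in the sources used here. Quantile normalisation forces a common distribution, so a shift shared by most genes would be hidden. Of 34760 probe sets, 6573 with identifiers below the lowest annotated one were taken as controls, and 28187 were tested. In the platform annotation 21640 had 1 gene symbol, 1321 several and 5226 were not listed or had no symbol. Of the Entrez identifiers, 21553 matched RefSeq GRCm38.p6. RefSeq was used for names, for the upstream sequences and for the neighbours and pseudogenes of Stmn1. Where a gene had several probe sets, the one with the highest mean over all arrays was used.

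Groups were compared with limma 3.58.1 (lmFit, eBayes) in R 4.3.3, two-sided, with Benjamini-Hochberg adjustment over all tested probe sets and a threshold of 0.05; only the groups compared entered each fit, and all 4 entered the difference of differences. The fit was also run on simulated arrays drawn independently of each other. That setting lacks the pairing of the 2 sides of an animal, so it cannot show how the fit handles pairing. Replicate numbers mark the same animal in the left and right groups, from the labels; the deviations of the 2 sides from their group means correlated at 0.0357 to 0.254 across probe sets. The main fits took the 2 sides of an animal as separate arrays, so their p-values measure the spread between arrays within groups. Only the replicate block compares the sides within each animal. The labels do not say whether mice shared a litter. The text names all 10 members and, from each other list, at most the 3 genes with the largest difference among its genes called in a given comparison. The members and lists were chosen with earlier results of these data known, so their counts are descriptions and no list was tested. Alternatives were a replicate block, all groups in 1 fit, median centring, leaving out dim probe sets, a trended and robust variance, the control level as covariate, control probe sets kept and each animal left out. Leaving out the single left IDR1018 array of replicate 3 was chosen after seeing the data.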

Additional observations from a re-analysis of the deposited data

Results flagged for a closer look

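Of 60 sets of 5 values (the signals of 10 genes in 4 groups and their left minus right differences in both sets of animals), 2 held a value far from the others by Dixon's criterion, which asks for a gap above 0.71 of the range. Chance gives about 1 in 20. Sox4 in the injured left group without peptide had replicate 3 at 9.89, with a gap of 0.742 of the range. Igfbpl1 in the injured left IDR1018 group had replicate 3 at 8.30, with a gap of 0.778 of the range.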

How the results depend on the processing

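Over 760 recomputed member values, 4 lost a call and 9 gained one. 65 had the other sign, 0 of them of a called value. The calls of Neurod1 in both comparisons and of Sox11 without peptide held under all alternatives run. The 4 lost calls were those of Nrep with IDR1018 without animals 1, 2, 3 or 4, where 1 to 2 members were called over the 5 left-out animals. Without peptide, 2 members were called, against 4 with dim probe sets left out (Sox4 and Nrep added) and 6 with a trended and robust variance (Dcx and Stmn1 as well). Over all probe sets without peptide, 5088 were called, 3194 with the control level as covariate and 2698 to 4414 without 1 animal (3325, 2788 and 2698 without replicates 2, 4 and 5). With IDR1018, 4184 were called, 2323 to 3027 without 1 animal (2323, 2732 and 2606 without replicates 2, 3 and 4), or 3544 without the left array of replicate 3 alone. The replicate block gave 4778 and 3383 and, beside Sox4 without peptide (adjusted p 0.0489), changed no member call. For IDR1018 against none, replicate numbers pair different animals. In the right hemisphere 1 probe set was called, 0 with the replicate block, all 4 groups in 1 fit, the control covariate or control probe sets kept, and 0 to 1 without 1 animal; in the left, 0 to 1, with 1 called without the left IDR1018 replicate 5. Each member has 1 probe set, so averaging probe sets of a gene could not differ. The causes were not tested. With 5 animals per group, left minus right differences of this order were not always called by limma. Sox4 at 0.14 without peptide (adjusted p 0.0532) and Dcx at -0.12 with IDR1018 (0.246) did not pass. Nrep at -0.15 with IDR1018 did (0.0235). Smaller differences may therefore go uncalled. No smallest detectable difference was computed, here or for the peptide comparisons. In the injured left hemisphere the lowest adjusted p of all probe sets was 0.675 by limma, and Sox11 at -0.13 had 0.999.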
